A study of Mus musculus with 27 samples.

Results

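The 41 genes described here encode proteins of the skeletal muscle sarcomere and of the calcium and energy systems that serve it. They were chosen by name, and all 41 were found among the 54752 genes counted by Ensembl identifier and matched to mouse symbols. Their RNA was measured by RNA-seq in tumors of CT26, a mouse colon carcinoma line, with 5 libraries in each of 3 groups. The groups were tumors grown from CT26 cells with a guide RNA against Mettl3 (Mettl3 KO), from cells with a guide RNA against Mettl14 (Mettl14 KO), and from cells with a control guide RNA. Mettl3 and Mettl14 form the methyltransferase that places N6-methyladenosine on mRNA. The guide RNAs were delivered to the cultured line by retrovirus, so host tissue of the BALB/c mice carried neither knockout. All groups shared the same handling, in which cells in PBS and Matrigel were placed under the skin of the flank. The treatment protocol gives 200 µg (10 mg/kg) of antibody by injection from day 11 to day 23 and lists anti-CTLA-4, anti-PD1 and IgG. The series design places all groups under anti-PD-1 therapy, and the labels of single samples name no antibody. For samples with Mettl14 in the title the genotype entry reads Mettl4, and the title was followed. Since the labels name no animal for any sample, the p-values weigh differences against the spread among the 5 samples of a group, which may in part be technical. In these bulk libraries, fewer muscle cells and less RNA per muscle cell cannot be told apart.

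A sarcomere is the repeating unit of striated muscle, in which myosin motors of the thick filament pull on actin of the thin filament. Troponin on the thin filament opens actin to myosin when calcium leaves the sarcoplasmic reticulum, and titin and nebulin hold the filaments in place. Fast fibers, which tire early, and slow fibers, which work by oxidation, use different genes for many of these proteins. The flank of a mouse carries a thin sheet of striated muscle in the skin, the panniculus carnosus, above the muscles of the body wall, and CT26 is an epithelial tumor line.

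Libraries held 4.35 to 9.33 M (mega) reads on genes in Mettl3 KO, 6.45 to 17.0 M in Mettl14 KO and 5.52 to 20.98 M in control. Olfactory and vomeronasal receptor genes, 1457 in all and with no known use in these tumors, gauged how many reads fell on unused genes. Their level was 0.238 to 0.807 CPM (reads of a gene scaled to the reads on genes of its library) per kb of exon in Mettl3 KO, 0.106 to 0.319 in Mettl14 KO and 0.0418 to 0.878 in control. The highest of the 15 was control 1, and control 3 and control 5 were the lowest. Mettl3 transcripts averaged 13.7 ± 1.44 CPM in Mettl3 KO, against 19.4 ± 3.56 CPM in control (SD, n = 5 each). Mettl14 transcripts averaged 61.1 ± 12.3 CPM in Mettl14 KO, against 68.9 ± 11.6 CPM in control (SD, n = 5 each). By edgeR's quasi-likelihood test the log2 fold change against control was -0.56 (standard error 0.15, adjusted p = 0.0545) for Mettl3 in Mettl3 KO and -0.21 (standard error 0.17, adjusted p = 0.735) for Mettl14 in Mettl14 KO. A guide RNA can leave a transcript in place and host cells keep both genes, so transcript levels test the labelling only weakly.

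Summed over the 41 genes, the level was 459, 506, 837, 2191 and 5851 CPM in Mettl3 KO libraries 1 to 5. It was 163, 294, 195, 209 and 444 CPM in Mettl14 KO, against 1227, 470.4, 1868, 1403 and 1671 CPM in control. Every Mettl14 KO library lay below every library of the other groups, with Mettl14 KO 5 close under Mettl3 KO 1 and control 2. Mettl3 KO ran from just under the lowest control library to above the highest. Group averages were 1969 ± 2282 CPM in Mettl3 KO, 261 ± 113 CPM in Mettl14 KO, against 1328 ± 539 CPM in control (SD, n = 5 each). Between the highest and the lowest of the 15 libraries the summed level differed 36.0-fold. Within Mettl3 KO the highest library was 12.7 times the lowest, within Mettl14 KO 2.73 times and within control 3.97 times. Mettl3 KO 4 and Mettl3 KO 5 were the top 2 libraries for 30 of the 41 genes, and a Mettl14 KO library was the lowest for 35. Titin alone gave a large part of the sum, and without it the range was 279 to 2161 CPM in Mettl3 KO, 123 to 249 CPM in Mettl14 KO, against 234 to 789 CPM in control.

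**Figure D1:**
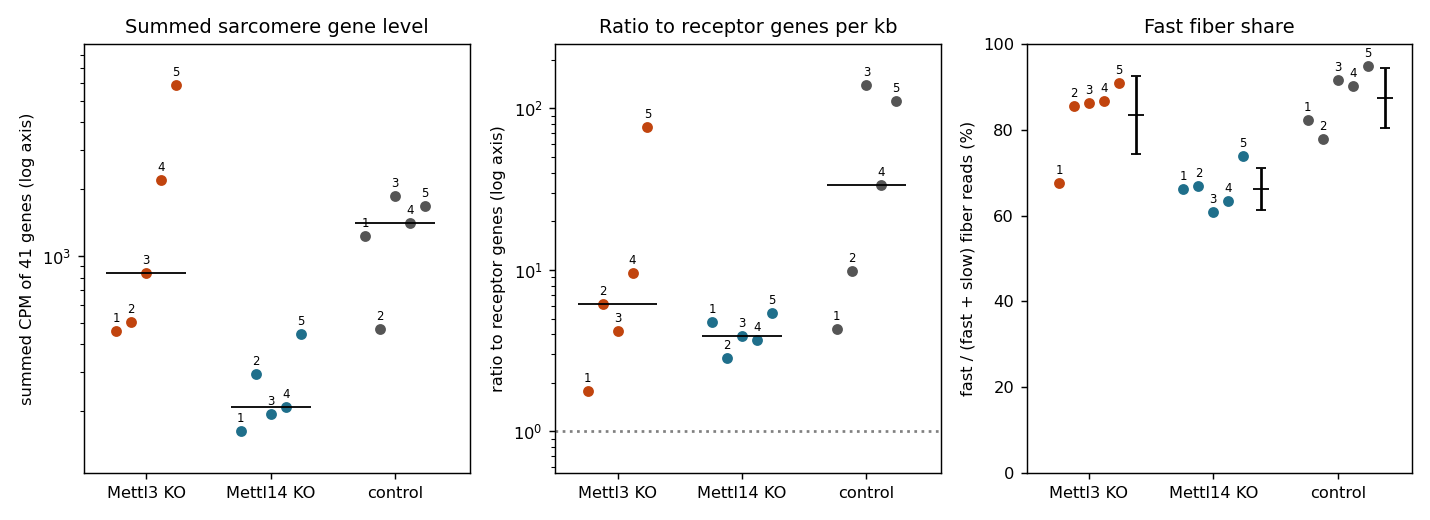
Left, summed CPM of the 41 genes in each library (points, numbered by replicate; lines are medians; log axis). Centre, their reads per kb of exon over those of the receptor genes (lines are medians; log axis; the dotted line marks a ratio of 1). Right, reads on fast fiber genes as a percent of fast plus slow fiber reads (mean ± SD, n = 5). Mettl14 KO libraries sit at 163 to 444 CPM, under all libraries of the other groups, and Mettl3 KO libraries spread over 459 to 5851 CPM.

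Per kb of exon, the summed reads of the 41 genes were 1.77 to 76.3 times those of the receptor genes in Mettl3 KO. The ratio was 2.85 to 5.41 in Mettl14 KO, against 4.33 to 139 in control. The low end of Mettl3 KO was Mettl3 KO 1, and the low end of control was control 1, which are both libraries with high receptor levels. Genes over 5 times the receptor level numbered 1 to 39 of 41 in single Mettl3 KO libraries, 6 to 12 in Mettl14 KO and 9 to 39 in control. In Mettl14 KO most of the 41 genes therefore lay within a few fold of the level at which unused genes were read. Averaged over the 15 libraries, the highest levels per kb were those of Eno3 at 26.8, Acta1 at 20.9, Myh4 at 12.4 and Tnnt3 at 8.98 CPM per kb. The lowest was Tnnc2 at 0.309 CPM per kb.

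The 10 genes given by library below are the 2 of each role with the highest level per kb of exon. Coordinates are those of GENCODE M21 on mm10.

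The thick filament is led by Myh4, the myosin heavy chain of the fastest fibers, which lies at chr11:67238029-67260446 (plus strand). It had 11.9, 38.8, 68.0, 150.3 and 372 CPM in Mettl3 KO libraries 1 to 5. The Mettl14 KO values were 0.643, 5.07, 1.97, 1.80 and 17.2 CPM, against 82.9, 9.51, 132, 80.7 and 148 CPM in control. Mettl14 KO 5 stood above the other Mettl14 KO libraries and above control 2, so the groups overlapped. Relative to control, edgeR's quasi-likelihood test with Benjamini-Hochberg adjustment over all genes gave log2 fold changes of 0.39 (standard error 0.80, adjusted p = 0.701) in Mettl3 KO and -4.15 (standard error 0.88, adjusted p = 0.143) in Mettl14 KO. Mylpf, the regulatory light chain of fast fibers, lies at chr7:127208890-127214298 (plus strand). It had 1.60, 2.92, 5.83, 17.4 and 22.5 CPM in Mettl3 KO, 0.643, 2.604, 0.922, 1.41 and 1.91 CPM in Mettl14 KO, against 6.12, 2.69, 11.6, 11.9 and 12.1 CPM in control. All 5 Mettl14 KO libraries were below all 5 control libraries, although Mettl14 KO 2 came close to control 2. Its log2 fold changes were 0.11 (standard error 0.64, adjusted p = 0.898) for Mettl3 KO and -2.63 (standard error 0.49, adjusted p = 0.130) for Mettl14 KO, both against control by edgeR.

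The heavy chains Myh1 and Myh2, of the other fast fiber types, had log2 fold changes in Mettl14 KO of -3.54 (standard error 0.50, adjusted p = 0.130) and -3.30 (standard error 0.51, adjusted p = 0.130). Their levels were 0.701 to 4.23 CPM in Mettl14 KO, against 9.03 to 31.97 CPM in control for Myh1, and 1.29 to 4.74 CPM in Mettl14 KO, against 5.95 to 38.8 CPM in control for Myh2. For both genes the highest Mettl14 KO library was under the lowest control library. Myh7, the heavy chain of slow fibers and of the heart, had 1.75 to 7.26 CPM in Mettl14 KO, against 0.849 to 11.3 CPM in control, and its log2 fold change was -0.33 (standard error 0.60, adjusted p = 0.963). The 2 groups overlapped, and control 5 was the lowest library of the 15 for Myh7. Mybpc1, a myosin binding protein counted here among the slow fiber genes, was at 0.760 to 4.94 CPM in Mettl14 KO, against 3.74 to 17.6 CPM in control, with overlap and a log2 fold change of -2.23 (standard error 0.51, adjusted p = 0.180). The heavy chain genes are close paralogs, and how the counting split reads among them cannot be told from the counts.

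The thin filament is built on Acta1, the actin of skeletal muscle, which lies at chr8:123891769-123894751 (minus strand). It had 2.74, 11.0, 22.2, 49.5 and 167 CPM in Mettl3 KO, 0.935, 1.23, 0.922, 0.860 and 6.55 CPM in Mettl14 KO, against 20.3, 6.63, 48.5, 63.7 and 79.0 CPM in control. Mettl14 KO libraries 1 to 4 lay near 1 CPM and Mettl14 KO 5 stood just under control 2, with no overlap. Among the 41 genes Acta1 had the lowest log2 fold change in Mettl14 KO against control by edgeR, -4.42 (standard error 0.76, adjusted p = 0.130), and in Mettl3 KO against control it had 0.11 (standard error 0.85, adjusted p = 0.922). Tnnt3, the fast troponin T that anchors the troponin complex to tropomyosin, lies at chr7:142498836-142516009 (plus strand). It had 4.10, 8.14, 15.9, 32.1 and 65.5 CPM in Mettl3 KO, 1.23, 3.56, 1.58, 1.80 and 3.93 CPM in Mettl14 KO, against 17.1, 3.26, 19.9, 15.5 and 19.7 CPM in control. Control 2 fell among the Mettl14 KO values, and the other control libraries were all above them. Its log2 fold changes by edgeR were 0.65 (standard error 0.65, adjusted p = 0.436) in Mettl3 KO and -2.71 (standard error 0.50, adjusted p = 0.130) in Mettl14 KO, each against control. Neb, the nebulin that spans the thin filament, had 15.9 to 30.7 CPM in Mettl14 KO, against 46.0 to 129.9 CPM in control, without overlap, and a log2 fold change of -1.97 (standard error 0.29, adjusted p = 0.130). Tnnc1, the slow and cardiac troponin C, had the highest log2 fold change of the tested genes in Mettl14 KO against control, 0.079 (standard error 0.38, adjusted p = 0.992). Tnnc2, the fast troponin C, had at most 0.548 CPM in any library and was too low to be tested. Exons of the antisense gene Ube2c share 74.0% of its exon bases, so its reads and those of Ube2c may not be told apart, and the strand setting of the counting is not given in the sources used here.

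Of the proteins that tie filaments to the Z disc and M band, Ttn, the titin spring that runs between them, lies at chr2:76703980-76982547 (minus strand). It had 142, 227, 359, 1143 and 3691 CPM in Mettl3 KO, 39.3, 76.7, 42.9, 49.9 and 195 CPM in Mettl14 KO, against 588, 237, 1087, 766 and 882 CPM in control. Mettl3 KO 5 was the highest library by a wide margin, and all Mettl14 KO libraries were under all control libraries. The edgeR log2 fold changes against control were 0.54 (standard error 0.77, adjusted p = 0.579) for Mettl3 KO and -3.17 (standard error 0.54, adjusted p = 0.130) for Mettl14 KO. Xirp2, an actin-binding protein that sits at the ends of myofibrils, lies at chr2:67446002-67526614 (plus strand). It had 12.8, 10.3, 35.7, 69.2 and 256 CPM in Mettl3 KO, 1.99, 6.58, 3.55, 2.89 and 13.2 CPM in Mettl14 KO, against 48.6, 18.3, 73.0, 50.7 and 65.5 CPM in control. As for titin, Mettl3 KO 5 was the highest and the Mettl14 KO libraries were all under the control libraries. Its log2 fold changes against control by edgeR were 0.48 (standard error 0.74, adjusted p = 0.607) in Mettl3 KO and -3.24 (standard error 0.53, adjusted p = 0.130) in Mettl14 KO. The other 9 genes of the Z disc and M band, among them the alpha-actinins Actn2 and Actn3, the titin cap Tcap, and the myomesins Myom1 and Myom2, each overlapped between Mettl14 KO and control.

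Among the genes of calcium handling, Atp2a1, the calcium pump of fast fibers, lies at chr7:126445858-126463108 (minus strand). It had 5.24, 10.4, 12.6, 36.3 and 71.0 CPM in Mettl3 KO, 2.28, 4.39, 2.50, 2.74 and 5.64 CPM in Mettl14 KO, against 14.8, 4.32, 25.7, 25.7 and 38.1 CPM in control. Control 2 lay inside the Mettl14 KO range, and the other 4 control libraries were above every Mettl14 KO library. By edgeR the log2 fold changes against control were 0.22 (standard error 0.66, adjusted p = 0.791) in Mettl3 KO and -2.69 (standard error 0.50, adjusted p = 0.130) in Mettl14 KO. Pvalb, the parvalbumin that buffers calcium in fast fibers, lies at chr15:78191114-78206400 (minus strand). It had 1.82, 3.82, 5.10, 10.4 and 11.9 CPM in Mettl3 KO, 0.526, 1.64, 0.263, 0.704 and 1.11 CPM in Mettl14 KO, against 4.83, 0.672, 3.73, 2.14 and 5.19 CPM in control. Control 2 was again among the Mettl14 KO values. For Pvalb, edgeR gave log2 fold changes of 0.91 (standard error 0.60, adjusted p = 0.277) in Mettl3 KO and -2.03 (standard error 0.63, adjusted p = 0.263) in Mettl14 KO against control. Casq1, the calcium store protein calsequestrin of fast fibers, had 2.21 to 17.0 CPM in Mettl3 KO, against 1.25 to 4.99 CPM in control, with a log2 fold change of 1.31 (standard error 0.58, adjusted p = 0.141).

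Among the genes of energy and oxygen supply, Eno3, the muscle enolase of glycolysis, lies at chr11:70657202-70662513 (plus strand). It had 25.1, 39.4, 33.7, 35.0 and 59.5 CPM in Mettl3 KO, 58.0, 34.7, 47.4, 51.5 and 44.3 CPM in Mettl14 KO, against 24.3, 44.0, 72.9, 55.6 and 72.6 CPM in control. The values did not follow those of the contractile genes: Mettl14 KO 1, the lowest library for 26 of the 41 genes, was among the higher ones for Eno3. Its log2 fold changes against control by edgeR were -0.56 (standard error 0.29, adjusted p = 0.201) in Mettl3 KO and -0.23 (standard error 0.25, adjusted p = 0.855) in Mettl14 KO. Pygm, the muscle glycogen phosphorylase, lies at chr19:6384399-6398459 (plus strand). It had 5.47, 4.12, 7.84, 12.9 and 19.4 CPM in Mettl3 KO, 1.40, 4.52, 3.55, 2.11 and 3.63 CPM in Mettl14 KO, against 8.21, 2.21, 6.71, 7.66 and 8.54 CPM in control. Control 2 lay inside the Mettl14 KO range and the other control libraries lay above it. For Pygm the log2 fold changes against control by edgeR were 0.50 (standard error 0.46, adjusted p = 0.406) in Mettl3 KO and -1.19 (standard error 0.42, adjusted p = 0.317) in Mettl14 KO. Ckm, the muscle creatine kinase that buffers ATP, had 0.156 to 1.51 CPM in Mettl14 KO, against 0.960 to 13.04 CPM in control, and a log2 fold change of -3.03 (standard error 0.72, adjusted p = 0.189).

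**Figure D2:**
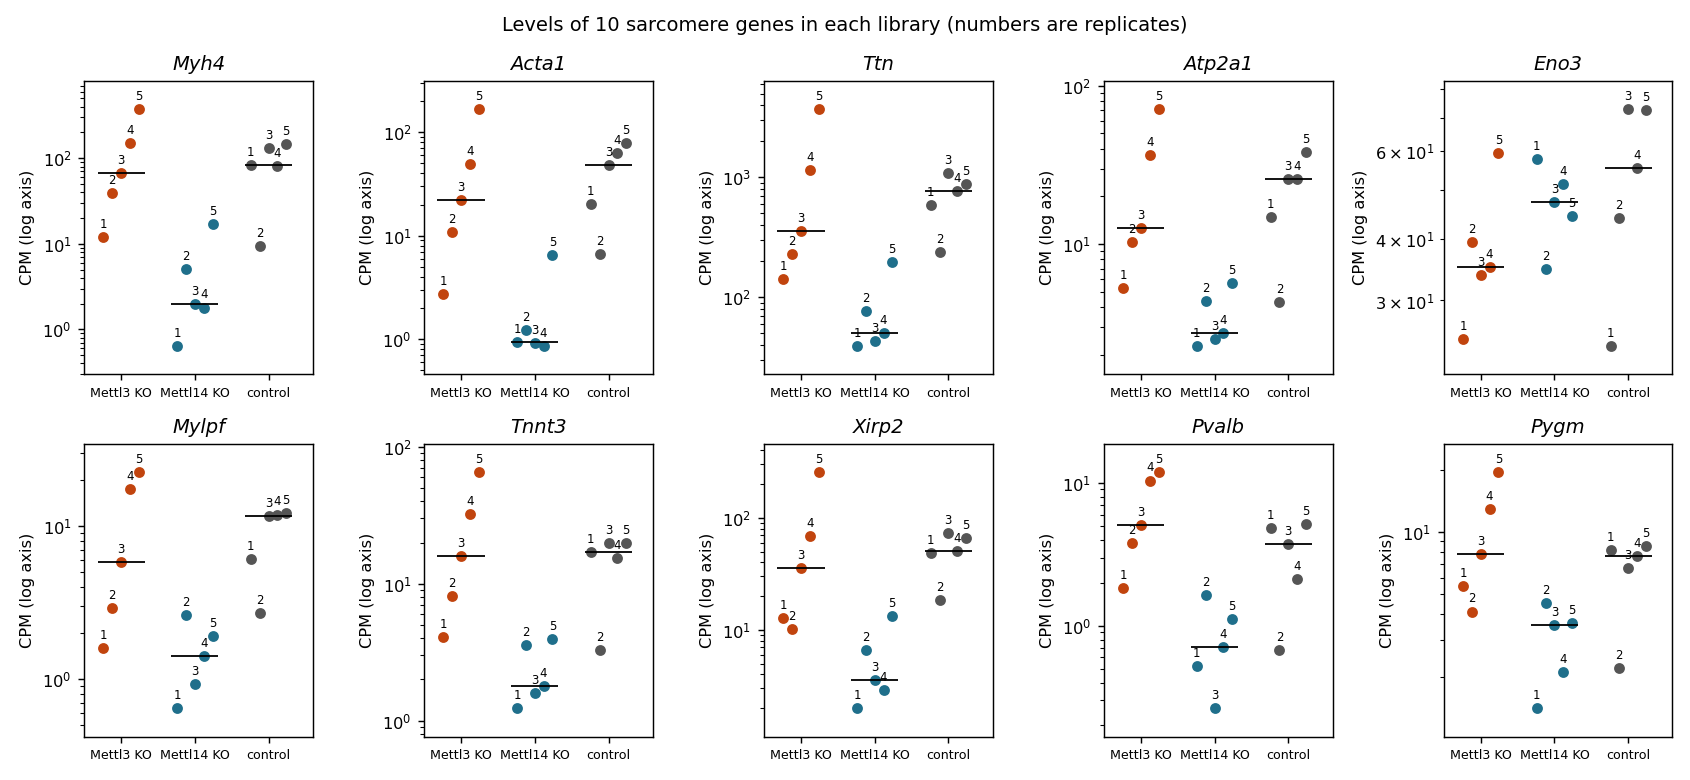
CPM (log axes) of the 10 genes in each library, numbered by replicate, with a line at each group's median; columns are the 5 roles. Mettl3 KO 5 is the highest library for 9 of the 10, and in Mettl14 KO the Eno3 panel does not show the low values of the other panels.

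The promoter windows of the leading gene of each role are shown because these genes belong to the same tissue while Eno3 varied apart from the other 4. The windows run from 250 bases before to 50 bases after the start (RefSeq, GRCm38.p6), 5′ to 3′ on the gene's strand, and capitals mark matches on either strand to the E-boxes CAGCTG and CAGGTG, to TATAAA, and to the MEF2 site and the CArG box. In the Myh4 window 1 TATAAA match overlaps the MEF2 match.
Myh4, chr11:67237562-67237861, plus strand: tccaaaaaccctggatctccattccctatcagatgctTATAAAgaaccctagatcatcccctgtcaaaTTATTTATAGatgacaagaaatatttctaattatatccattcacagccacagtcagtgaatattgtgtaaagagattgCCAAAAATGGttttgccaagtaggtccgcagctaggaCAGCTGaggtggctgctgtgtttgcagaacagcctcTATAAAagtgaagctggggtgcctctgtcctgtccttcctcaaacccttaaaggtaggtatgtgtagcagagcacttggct
Acta1, chr8:123894726-123895025, minus strand: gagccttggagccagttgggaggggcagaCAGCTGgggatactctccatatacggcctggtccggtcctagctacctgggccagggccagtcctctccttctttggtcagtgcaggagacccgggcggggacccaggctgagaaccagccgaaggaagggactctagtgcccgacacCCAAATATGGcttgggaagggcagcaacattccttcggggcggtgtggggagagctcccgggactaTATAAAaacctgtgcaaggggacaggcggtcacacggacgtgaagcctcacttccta
Ttn, chr2:76982498-76982797, minus strand: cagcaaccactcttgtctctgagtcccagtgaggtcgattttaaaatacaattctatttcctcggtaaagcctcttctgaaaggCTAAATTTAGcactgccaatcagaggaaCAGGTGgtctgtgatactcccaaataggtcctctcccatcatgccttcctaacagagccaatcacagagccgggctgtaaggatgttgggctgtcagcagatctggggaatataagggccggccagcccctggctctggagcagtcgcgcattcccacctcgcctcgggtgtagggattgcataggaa
Atp2a1, chr7:126463024-126463323, minus strand: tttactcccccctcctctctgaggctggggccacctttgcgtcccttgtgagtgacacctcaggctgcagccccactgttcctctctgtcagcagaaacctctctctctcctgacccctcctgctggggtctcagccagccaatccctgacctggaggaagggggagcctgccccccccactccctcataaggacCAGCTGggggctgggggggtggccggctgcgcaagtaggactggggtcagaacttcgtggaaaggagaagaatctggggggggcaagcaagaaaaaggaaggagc
Eno3, chr11:70656926-70657225, plus strand: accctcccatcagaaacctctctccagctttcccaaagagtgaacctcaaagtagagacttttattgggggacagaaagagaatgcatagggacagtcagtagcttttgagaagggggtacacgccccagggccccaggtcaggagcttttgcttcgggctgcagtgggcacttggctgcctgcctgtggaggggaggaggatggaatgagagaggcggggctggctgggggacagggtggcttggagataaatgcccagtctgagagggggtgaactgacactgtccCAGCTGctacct
Windows were found for 30 of the 41 genes. A match to CAGCTG was present for 14 of the 30 (46.7%) and for 18.3% of 27025 genes with a window, and to CAGGTG for 8 (26.7%) and 22.6%. Matches to TATAAA were present for 8 (26.7%) of the 30 and 15.7% of all. The MEF2 site was present for 6 (20.0%) and 3.70%, and the CArG box, read by serum response factor, for 5 (16.7%) and 1.81%. CAGCTG stands in the Eno3 window as well as in those of Myh4, Acta1 and Atp2a1. These are matches of letters, given as a description.

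In Mettl14 KO against control most sarcomere genes had lower values, and none passed edgeR's adjusted test. Of the 41 genes 39 were tested, with Tnnc2 and Myl2 under the low-count filter, 37 had a log2 fold change below 0, and the median was -1.56, beside -0.085 over all 21555 genes tested. None passed an adjusted p of 0.05 by edgeR, nor did any gene of the table (0% called), and the smallest adjusted p of the 39 genes, 0.130, was also the smallest over all genes. An unadjusted p under 0.05 was found for 26 of the 39, all with lower values in Mettl14 KO, beside 6.6% of all genes tested that were lower at that p. Groups did not overlap for 8 of the 39, lower in Mettl14 KO (Acta1, Myh1, Myh2, Myl1, Mylpf, Ttn, Neb and Xirp2), beside 0.701% of all genes, and none was higher in every Mettl14 KO library, beside 0.682%. By DESeq2 16 of the 39 passed with lower values, beside 0.84% of all genes, and by limma voom none did, beside 0% of all genes. By limma voom 28 had lower values at an unadjusted p under 0.05, beside 6.42% of all genes. The authors' deposited table lists an adjusted p under 0.05 with a lower level for 21 of 33 of these genes, beside 0.949% of the genes listed with one, and with a higher level for none, beside 2.03%. In the authors' deposited table Myh2, Atp2a1, Neb and Xirp2 have the 4 smallest p-values of all genes.

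The count moved with single libraries. Control 2 had low levels of the sarcomere genes, and control 1 had the highest receptor level. Without control 1, 16 genes passed with lower values by edgeR, beside 2% of all genes, and without control 2, 5 did, beside 0.0261%. With both left out 9 did, beside 0.0754%, and without Mettl14 KO 5 the number was 9, beside 0.0641%. No low-count filter gave 12, beside 0.036%, and a block for the replicate number gave 2, beside 0.00928%. The 11 genes called lower by DESeq2, without the filter, without control 1 and in the authors' deposited table alike were Atp2a1, Ckm, Mybpc1, Mybpc2, Myh1, Myh2, Mylpf, Neb, Tnnt3, Ttn and Xirp2. These settings were those with the most calls and share libraries, so the overlap is not independent support. Of the 11, only Atp2a1, Myh1, Myh2, Neb and Tnnt3 were called without control 2, and only Myh1 with the replicate block. With the filter, all libraries of both groups and no replicate block edgeR called none, nor did limma voom.

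In Mettl3 KO against control, 40 genes were tested, all but Tnnc2, 39 had a log2 fold change above 0, and the median was 0.50, beside -0.14 over all 21427 genes tested. A median above 0 was not particular to these genes, since all the other gene lists described below except the erythroid one had it. None passed by edgeR, beside 1.24% of all genes. An unadjusted p under 0.05 was found for 2, Casq1 and Myl2, both with higher values in Mettl3 KO, beside 5.26% of all genes that were higher at that p. DESeq2 called none, beside 11.7% of all genes, and found 6 higher at an unadjusted p under 0.05, beside 10.2%. By limma voom Myl3 and Tnnt1 were called higher, beside 11.2% of all genes. No gene separated the groups, beside 1.76% of all genes that were higher and 1.68% that were lower in every Mettl3 KO library. Log2 fold changes ran from -0.56 (standard error 0.29, adjusted p = 0.201) for Eno3 to 1.48 (standard error 0.61, adjusted p = 0.124) for Myl2, the slow regulatory light chain. Without Mettl3 KO 5, 25 of 40 genes had a log2 fold change above 0, with a median of 0.19 beside 0.16 over all genes. Without Mettl3 KO 4 the number was 38 of 40, with a median of 0.51 beside 0.039. Without both, 26 of 40 genes had a log2 fold change below 0, with a median of -0.34 beside 0.17 over all genes, and none passed by edgeR, beside 0.00381% of all genes. In that fit 8 had lower values at an unadjusted p under 0.05, beside 10% of all genes. Without control 1, 15 genes passed with higher values by edgeR, beside 36.2% of all genes. The authors' deposited table lists none of 36 genes at an adjusted p under 0.05, beside 3.4% of genes listed higher and 8.18% listed lower. With the replicate number as a block 1 gene, Ldb3, passed with a higher value, beside 8.83% of all genes. Both comparisons use the same control libraries, so their values are not independent.

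Between the knockouts, Mettl3 KO had the higher value for 39 of 40 genes tested, with a median log2 fold change of 2.24 beside -0.015 over all 24566 genes tested. None passed by edgeR (0% of all genes called), and the smallest adjusted p was 0.212. An unadjusted p under 0.05 was found for 35, all with higher values in Mettl3 KO, beside 4.79% of all genes that were higher at that p. DESeq2 called 27 higher, beside 0.183%, and limma voom none, beside 0%. By limma voom 37 had higher values at an unadjusted p under 0.05, beside 10.7% of all genes. Every Mettl3 KO library was above every Mettl14 KO library for 10 genes, beside 1.65% of all genes. These were Myh1, Myl1, Tnnt3, Neb, Mybpc2, Ckm, Pvalb, Casq1, Tcap and Myot. Myh1 had a log2 fold change of 3.99 (standard error 0.73, adjusted p = 0.212), Neb 2.45 (standard error 0.52, adjusted p = 0.226), Ckm 3.40 (standard error 0.75, adjusted p = 0.235) and Casq1 2.43 (standard error 0.54, adjusted p = 0.235). The highest log2 fold changes were those of Myh4, 4.61 (standard error 0.98, adjusted p = 0.226), and Acta1, 4.61 (standard error 0.99, adjusted p = 0.226), and Eno3, with -0.29 (standard error 0.27, adjusted p = 0.476), was the only tested gene below 0.

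**Figure D3:**
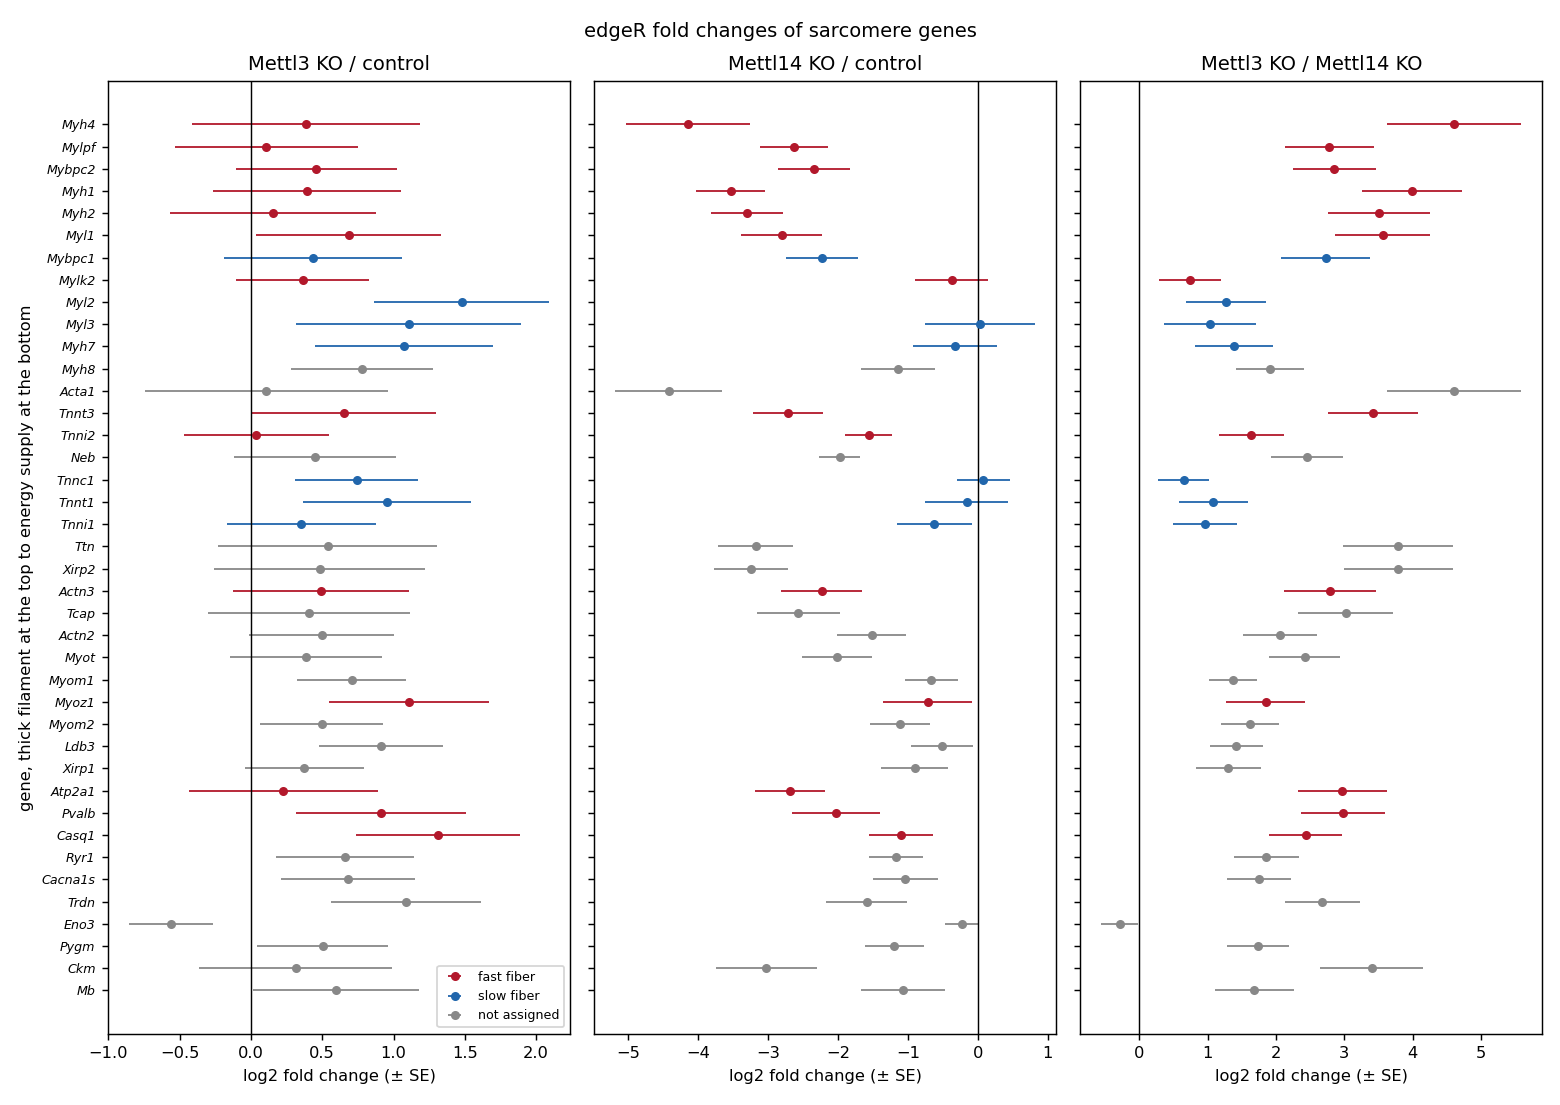
Log2 fold changes (± SE) of the tested genes by edgeR in the 3 comparisons, ordered by role and colored by fiber type; the horizontal axes differ between panels. In Mettl14 KO against control, most fast fiber genes lie left of most slow fiber genes, and Mybpc1 is the slow fiber gene at -2.23.

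Of the 41 genes 15 were assigned to fast fibers and 7 to slow fibers. In Mettl14 KO against control, the 14 fast genes tested had a median log2 fold change of -2.49, and 12 of them had an unadjusted p under 0.05. The 6 slow genes tested had a median of -0.24, and 1 of them, Mybpc1, had an unadjusted p under 0.05. All of these had lower values, beside 6.6% of all genes that were lower at that p. The difference between fast and slow genes was not tested. In Mettl3 KO against control the medians were 0.42 for fast and 0.95 for slow genes. The median receptor level was 0.623 CPM per kb in Mettl3 KO and 0.129 in control. Over that level, the summed slow genes had a median ratio of 2.77 in Mettl3 KO and 8.57 in control, and the fast genes 8.90 and 43.2. With the receptor level as a covariate, 0 of the 40 sarcomere genes tested by edgeR had an unadjusted p under 0.05. Over all 21427 genes, 588 were higher and 1757 lower in that fit. A summed level of 15.1 to 62.4 CPM for the fast genes in Mettl14 KO stood against 53.6 to 353 CPM in control, and 7.71 to 24.1 CPM for the slow genes in Mettl14 KO stood against 15.2 to 48.6 CPM in control. In Mettl3 KO the fast genes summed to 73.9 to 902 CPM and the slow genes to 17.0 to 89.4 CPM. Per kb the slow genes stood at 1.83 to 15.7 times the receptor level in Mettl3 KO, 3.05 to 4.25 times in Mettl14 KO and 2.31 to 29.6 times in control, so their level was often within a few fold of that of unused genes.

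Reads on fast genes made up 67.6, 85.6, 86.3, 86.6 and 91.0% of fast plus slow reads in Mettl3 KO libraries 1 to 5. They made up 66.2, 66.9, 60.9, 63.4 and 73.8% in Mettl14 KO, against 82.3, 77.9, 91.5, 90.3 and 94.9% in control. All Mettl14 KO libraries were below all control libraries, and Mettl3 KO 1 fell within the Mettl14 KO range. Per kb, the fast genes stood at 2.88 to 5.53 times the receptor level in Mettl14 KO, against 5.80 to 173 times in control. The slow genes in Mettl14 KO stood at 3.05 to 4.25 times. In Mettl3 KO 1 the ratios were 2.07 for fast and 1.83 for slow genes. In these libraries both classes lay within a few fold of the level of unused genes, and what the share reflects there was not tested. The share averaged 83.4 ± 9.08% in Mettl3 KO, 66.2 ± 4.83% in Mettl14 KO and 87.4 ± 7.02% in control (SD, n = 5 each). After subtraction of the receptor level it averaged 86.4% in Mettl3 KO, 66.7% in Mettl14 KO and 89.1% in control. Without Myh4 and Mybpc1, the most abundant gene of each class, it averaged 82.8% in Mettl3 KO, 67.2% in Mettl14 KO and 88.7% in control. Within the 5 myosin heavy chains, Myh4 had a median share per kb of 66.1% in Mettl3 KO, 24.1% in Mettl14 KO and 60.6% in control. Myh7 had 4.48% in Mettl3 KO, 26.6% in Mettl14 KO and 2.53% in control. Myh4 was the leading heavy chain in the median control and Mettl3 KO library, while Myh7 had the larger median share in Mettl14 KO, where the reads were few. The other Mettl14 KO medians were 13.6% for Myh1, 17.0% for Myh2 and 14.0% for Myh8. Single Mettl14 KO libraries ran from 11.2 to 37.1% for Myh7 and from 14.8 to 55.1% for Myh4. Reads falling evenly per kb would give the 5 genes equal shares, and a shift between heavy chains was not tested. Of the other pairs of fast and slow genes, Tnnt3 held a median of 85.8% of Tnnt3 plus Tnnt1 per kb in Mettl3 KO, 58.2% in Mettl14 KO and 91.8% in control. Its share overlapped between single libraries of Mettl14 KO, 44.3 to 70.7%, and control, 68.3 to 98.0%. Myl1 held 76.0% of Myl1 plus Myl3 in Mettl3 KO, 36.5% in Mettl14 KO and 87.6% in control. It overlapped as well, at 21.2 to 49.6% in Mettl14 KO and 38.7 to 98.3% in control. Not all pairs were alike, since Mybpc2 held 66.7% of Mybpc2 plus Mybpc1 in Mettl3 KO, 63.4% in Mettl14 KO and 62.1% in control. Casq1 held 73.7% of Casq1 plus Casq2 in Mettl3 KO, 61.2% in Mettl14 KO and 64.3% in control. Tnni2 held 82.6% of Tnni2 plus Tnni1 in Mettl3 KO, 76.6% in Mettl14 KO and 90.5% in control. Atp2a1 held 8.21% of Atp2a1 plus Atp2a2 in Mettl3 KO, 1.38% in Mettl14 KO and 10.1% in control. Mylpf held 83.0% of Mylpf plus Myl2 in Mettl3 KO, 71.4% in Mettl14 KO and 96.3% in control. Only the Mylpf pair, at 67.4 to 77.1% in Mettl14 KO and 84.3 to 96.9% in control, did not overlap between these groups.

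**Figure D4:**
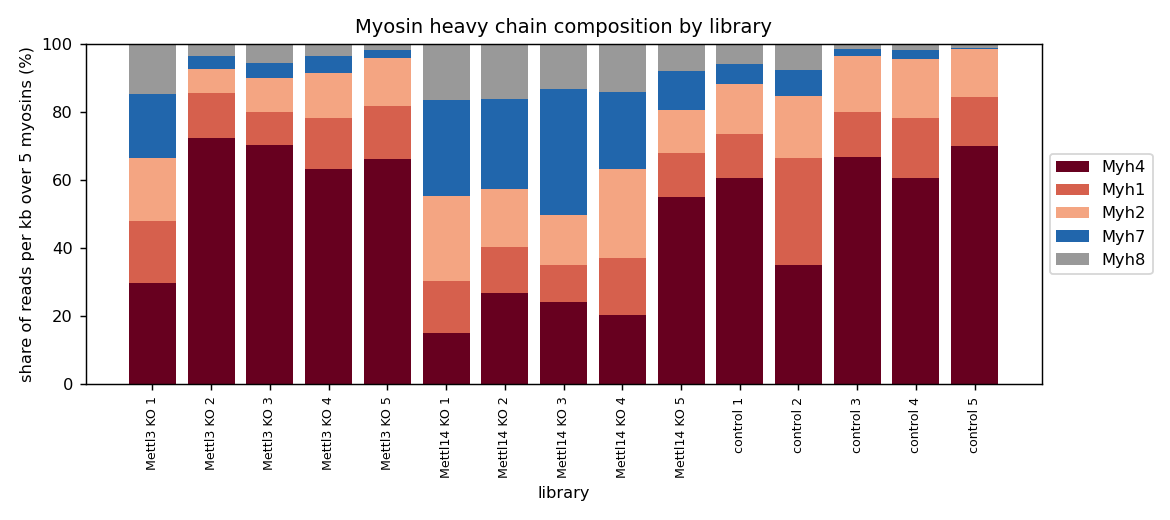
Share (%) of reads per kb of exon held by each of 5 myosin heavy chains in every library, with Mettl3 KO at the left, Mettl14 KO in the middle and control at the right. Myh4 holds 14.8 to 55.1% in Mettl14 KO and 34.9 to 70.1% in control.

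Other genes of muscle were read in the same libraries. The 45 other skeletal muscle genes on a second list summed to 153 to 508 CPM in Mettl3 KO, 98.9 to 170.1 CPM in Mettl14 KO, against 125 to 285 CPM in control. In Mettl14 KO against control 35 of them were tested by edgeR, none passed, and the median log2 fold change was -0.41. An unadjusted p under 0.05 with lower values was found for 8, beside 6.6% of all genes. In Mettl3 KO against control 37 of them were tested, none passed, and the median was 0.61. An unadjusted p under 0.05 with higher values was found for 2, near the share over all genes, 5.26%. The 16 genes of muscle precursor cells and embryonic muscle summed to 33.9 to 83.4 CPM in Mettl3 KO, 18.5 to 44.5 CPM in Mettl14 KO, against 22.7 to 84.5 CPM in control. Among them Pax7, the factor that marks satellite cells, stood at 0.737 to 2.00 times the receptor level per kb in Mettl3 KO, 1.32 to 3.48 times in Mettl14 KO and 1.01 to 1.88 times in control. Myod1, the factor that commits cells to muscle, stood at 0.759 to 4.39 times in Mettl3 KO, 1.19 to 3.65 times in Mettl14 KO and 1.48 to 6.39 times in control. Of the 11 tested in Mettl14 KO against control, none passed by edgeR. Lower values at an unadjusted p under 0.05 were found for 1, beside 6.6% of all genes. Myf5 and Mymx were at 0 in a control library. Summed per kb, the 16 genes stood at 1.51 to 4.61 times the receptor level in Mettl3 KO, 2.41 to 3.79 times in Mettl14 KO and 1.84 to 11.3 times in control.

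Marker lists of neighbouring tissues were read in the same libraries. Keratinocyte genes (10 of 10 found) summed to 18.5 to 45.7 CPM in Mettl3 KO, 10.1 to 30.3 CPM in Mettl14 KO, against 6.14 to 48.8 CPM in control, with Lor at 0 in a control library. Per kb they stood at 1.27 to 2.74 times the receptor level in Mettl3 KO, 2.15 to 3.21 times in Mettl14 KO and 1.69 to 5.98 times in control. Adipocyte genes (8 of 8) summed to 54.7 to 115 CPM in Mettl3 KO, 40.8 to 68.9 CPM in Mettl14 KO, against 60.2 to 76.9 CPM in control, with Adipoq and Cidec at 0 in a control library. As a whole this list stood at 3.31 to 14.2 times the receptor level per kb in Mettl3 KO. The ratio was 6.65 to 21.3 in Mettl14 KO and 3.16 to 68.1 in control, and a gene at 0 in a single library does not stand for its list. Cardiac muscle genes (10 of 10) summed to 40.7 to 95.6 CPM in Mettl3 KO, 39.0 to 91.0 CPM in Mettl14 KO, against 25.2 to 89.99 CPM in control, with Nkx2-5 at 0 in a Mettl14 KO and a control library and Myl7 at 0 in a control library. Over the receptor level per kb these genes stood at 1.78 to 3.37 in Mettl3 KO, 3.42 to 8.99 in Mettl14 KO and 1.79 to 11.4 in control. Smooth muscle genes (8 of 8) summed to 68.0 to 138 CPM in Mettl3 KO, 61.5 to 129 CPM in Mettl14 KO, against 61.8 to 99.2 CPM in control, and fibroblast genes (9 of 9) to 1284 to 4536 CPM in Mettl3 KO, 1868 to 7949 CPM in Mettl14 KO, against 1407 to 3258 CPM in control. Peripheral nerve genes (7 of 7) summed to 49.5 to 61.0 CPM in Mettl3 KO, 46.9 to 74.9 CPM in Mettl14 KO, against 38.01 to 64.5 CPM in control. The smooth muscle genes stood at 3.55 to 20.6 times the receptor level per kb in Mettl3 KO, 9.26 to 33.9 times in Mettl14 KO and 2.99 to 75.2 times in control. For the nerve genes these ratios were 2.30 to 7.59, 6.08 to 19.8 and 2.21 to 43.9, and the fibroblast genes stood at 25.4 times or more in every library. In Mettl14 KO against control none of the tested genes of these lists passed by edgeR, with an unadjusted p under 0.05 for 0 keratinocyte genes, 1 adipocyte gene with lower values, 1 cardiac, 2 fibroblast and 1 nerve genes with higher values, and 2 smooth muscle genes, 1 in each direction. Over all 21555 genes tested, 1422 were lower and 1022 higher at that p. Erythroid genes (6 of 6) summed to 31.4 to 64.2 CPM in Mettl3 KO, 31.1 to 63.1 CPM in Mettl14 KO, against 69.1 to 299 CPM in control, and their median log2 fold change was -1.85 in Mettl14 KO and -2.01 in Mettl3 KO. Of the 6 erythroid genes 3 passed by edgeR with lower values in Mettl3 KO, beside 0.835% of all genes. None passed in Mettl14 KO, beside 0%, where 5 were lower at an unadjusted p under 0.05, beside 6.6%. Tumor epithelial genes (5 of 5) summed to 48.3 to 108 CPM in Mettl3 KO, 73.8 to 162 CPM in Mettl14 KO, against 176 to 235 CPM in control. By edgeR 1 of the 5 passed with a lower value in Mettl3 KO, beside 0.835% of all genes, and none in Mettl14 KO, beside 0%. Their median log2 fold change against control was 0.40 in Mettl3 KO and -0.54 in Mettl14 KO. In Mettl3 KO the sum and the median of these genes therefore went in opposite directions. In Mettl3 KO against control the median log2 fold changes were 1.23 for adipocyte, 0.91 for keratinocyte and 0.89 for cardiac genes. They were 0.80 for smooth muscle, 0.72 for nerve, 0.31 for fibroblast and 0.94 for muscle precursor and embryonic muscle genes. The median of the sarcomere genes was 0.50, and that of all genes -0.14. The part of any of these tissues in the sarcomere gene values was not tested.

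**Figure D5:**
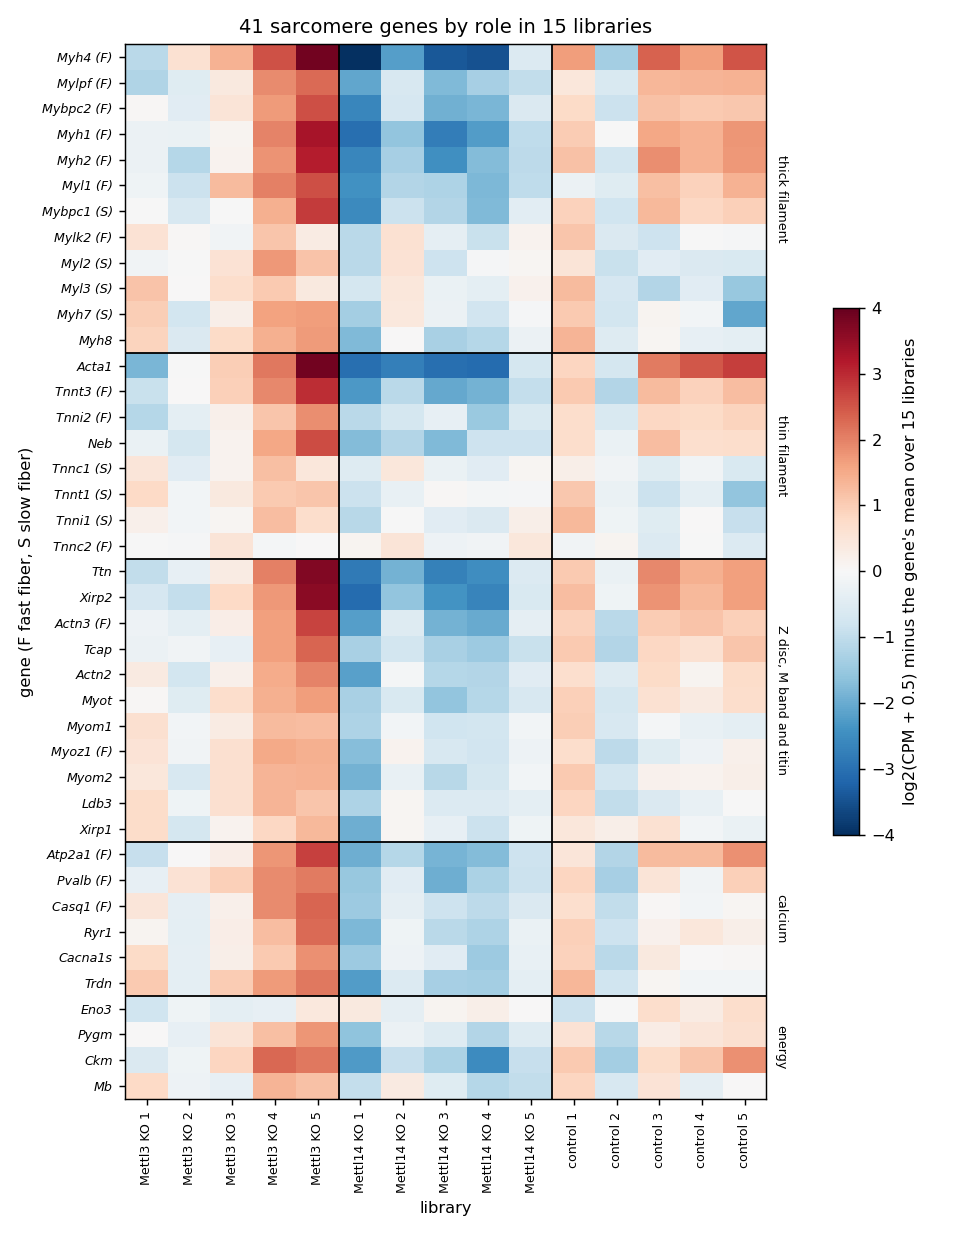
log2(CPM + 0.5) of each of the 41 genes minus its mean over the 15 libraries, in rows by role (F fast fiber, S slow fiber) and columns by library. Most genes are high in Mettl3 KO 4 and 5 and low in Mettl14 KO 1, while Eno3 and Tnnc2 are among those that do not show it.

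Some counts of single genes need care. In the authors' deposited table for Mettl3 KO the mean normalized count of Tnnc2 is 80.8, against 1.82 computed here from the deposited counts of the same libraries. In the authors' deposited table for Mettl14 KO it is 41.6, against 2.56 computed here. The mean of Ckm in the authors' deposited tables was 1.71 times the one computed here for Mettl3 KO and 1.62 times for Mettl14 KO. In the authors' deposited tables the means of Myl2, Myl3 and Tnnt1 were lower, at 0.363 (Myl3, Mettl3 KO) to 0.471 (Myl3, Mettl14 KO) times those computed here. Tnnc2 is among the 21 genes called lower in the authors' deposited table for Mettl14 KO and was not tested here. Exons of genes on the other strand cover 31.9% of the exon bases of Mb, the oxygen store myoglobin, and 21.9% of those of Atp2a1. They cover 20.0% of those of Cacna1s and 15.5% of those of Ckm. How many reads this affects cannot be told, since the strand setting is not given.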

How the data were processed

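The 15 RNA-seq libraries from tumors, 5 in each of 3 groups, were used. The 12 methylated RNA and input samples were not analysed here. Raw counts of reads for each gene were deposited in 2 tables with the same control columns. Per the submitters' processing notes, cutadapt 1.18, HISAT2 2.1.0, HTSeq 0.11.2, DESeq2 and the build mm10 were used, but the strand setting and annotation release are not given there. Those lines of the count tables that name no gene held 71.7 to 85.5% of their totals in Mettl3 KO, 64.1 to 75.9% in Mettl14 KO and 56.8 to 86.2% in control, and entered neither the library sizes nor the tests. The authors also deposited tables of comparisons with log2 fold changes and their errors, p-values, a test statistic (a score) and the mean normalized count, a signal value. Only what is named as the authors' deposited table comes from them.

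Genes were tested with edgeR 4.0.16 (R 4.3.3; TMM, a low-count filter with a minimum of 10, robust quasi-likelihood, Benjamini-Hochberg adjustment over all genes tested, threshold 0.05). Each knockout was fitted with the control libraries, and the knockouts were compared in a fit of all 15. DESeq2 1.42.0 and limma 3.58.1 (voom) were alternatives, with other scalings, filters, a replicate block and libraries left out. The procedure was also run on simulated counts. Those had a smaller spread and no differences shared across whole libraries, so that run does not bear on the calls in these data. Levels are CPM on the TMM scale, and exon lengths come from GENCODE M21. The summed level and the fast share have no test. The members and lists were chosen with earlier results of these data known. All 41 genes may be named, those given by library are the 2 of each role with the highest level per kb, and of the other lists Pax7, Myod1 and genes at 0 reads are named outside the rule, after their values were seen. No columns of values were without a sample.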

Additional observations from a re-analysis of the deposited data

Results flagged for a closer look

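In groups of 5 libraries, the highest or lowest library was picked out where its gap to the nearest library exceeded 0.71 of the group's range (Dixon's critical value). Of 87 groups examined 13 passed. For normally distributed values chance gives about 5%, or 1 in 20. The levels here were CPM on a linear scale, not logs, and the groups share libraries and genes. The 13 are therefore not read as more than chance would give. In Mettl3 KO, library 5 was far above the others for Acta1 (167 CPM), Ttn (3691 CPM), Xirp2 (256 CPM), the Z disc, M band and titin genes together (4091 CPM) and the smooth muscle list (138 CPM). Library 1 of Mettl3 KO was far below the others in fast share, at 67.6%. In Mettl14 KO, library 5 was far above the others for Myh4 (17.2 CPM), Acta1 (6.55 CPM) and Ttn (195 CPM). In control, library 1 was far above the others for the list of muscle precursor and embryonic muscle genes (84.5 CPM) and the keratinocyte list (48.8 CPM), and library 2 was far below the others for Tnnt3 (3.26 CPM) and Pygm (2.21 CPM). Library 1 of control was also the library with the highest receptor level.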

How the results depend on the processing

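In Mettl3 KO against control, 0 sarcomere genes passed with higher values by edgeR, beside 0.406% of all genes. By limma voom the number was 2, beside 11.2%. With single libraries left out it was 0 to 15, with the 15 found without control 1, beside 36.2%. The number passing with lower values in Mettl14 KO against control was 0 by edgeR, beside 0% of all genes. It was 12 without the low-count filter, beside 0.036%, and 16 by DESeq2, beside 0.84%. With single libraries left out it was 0 to 16, with the 16 found without control 1, beside 2%. Without both control 1 and 2, a setting chosen after seeing the data, it was 9, beside 0.0754%. The removal of both Mettl3 KO 4 and 5, the subtraction of the receptor level and its use as a covariate were also chosen then. Between the knockouts DESeq2 called 27 higher, beside 0.183% of all genes, and no single library left out gave a call among the sarcomere genes. With the replicate block, 1 gene was called higher in Mettl3 KO against control, beside 8.83% of all genes. In that setting 2 were called lower in Mettl14 KO against control, beside 0.00928%, and none between the knockouts, nor was any other gene. Replicate numbers are not tied to animals, and the correlations of same-numbered deviations ran from -0.75 to 0.62, so the libraries were not taken as pairs.

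Log2 fold changes of Mettl3 KO against control turned below 0 without both Mettl3 KO 4 and 5 for Myh4 (-1.20), Mylpf (-1.34), Acta1 (-1.83), Tnnt3 (-0.69), Ttn (-1.55), Xirp2 (-1.39), Atp2a1 (-1.20) and Pygm (-0.21). By limma voom they were -0.39 for Mylpf, -0.45 for Acta1, -0.27 for Ttn and -0.31 for Xirp2, and with the replicate block -0.18 for Mylpf, -0.38 for Acta1, -0.27 for Ttn and -0.29 for Xirp2. Without the low-count filter they were -0.083 for Mylpf and -0.022 for Acta1. With single libraries left out they ran over -0.39 to 0.85 for Myh4, -0.33 to 0.55 for Mylpf, -1.01 to 0.60 for Acta1, -0.56 to 0.99 for Ttn, -0.64 to 0.91 for Xirp2 and -0.40 to 0.68 for Atp2a1. For Mettl14 KO against control they ran over -0.15 to 0.27 for Tnnc1 and -0.62 to 0.23 for Myh7, and Myh7 was at 0.098 by limma voom and 0.14 without both control 1 and 2. With the receptor level as a covariate, Eno3 was at 0.19 in Mettl3 KO and 0.065 in Mettl14 KO against control and 0.14 between the knockouts, Tnnc1 was at -0.14 in Mettl14 KO, and with that level subtracted Eno3 was at 0.051 between the knockouts. The cause was not tested. The summed level averaged 998 to 2346 CPM in Mettl3 KO, 215 to 285 CPM in Mettl14 KO and 1193 to 1542 CPM in control with single libraries left out, and the fast share 81.5 to 87.4% in Mettl3 KO, 64.4 to 67.6% in Mettl14 KO and 85.5 to 89.7% in control. Scaling by library totals moved the median of all genes to 0.020 for Mettl3 KO and 0.075 for Mettl14 KO, each against control. Relative to that median the sarcomere genes stood at 0.63 with TMM and 0.69 with totals for Mettl3 KO. For Mettl3 KO that difference was -0.20 without the low-count filter, 0.032 without Mettl3 KO 5 and -0.51 without both Mettl3 KO 4 and 5. For Mettl14 KO it was -1.48 with TMM and -1.49 with totals, and ran from -1.79 to -1.21 over all settings. Many genes had few reads in Mettl14 KO, where fast genes together had 187 to 619 reads in a library, against 558 to 7059 in control.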
